A study of Rattus norvegicus with 16 samples.

Results

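The genes described here are cytochromes P450 of rat liver from families 1 to 4 other than Cyp2e1, Cyp2c and Cyp4a. They were chosen by symbol, as genes of the Cyp1a and Cyp1b, Cyp2a to Cyp2w, Cyp3a, and Cyp4b, Cyp4f, Cyp4v and Cyp4x subfamilies (Cyp2c and Cyp2e1 left out). A member also had to reach 10 or more counts in at least 4 libraries. Such a symbol was carried by 42 of the 17168 genes listed, and 33 of these met the count rule. The other 9 were Cyp1b1, Cyp2a3, Cyp2b12, Cyp2b15, Cyp2b21, Cyp2g1, Cyp4f18, Cyp4f40 and Cyp4x1. Cyp1b1 reached 17 counts in its highest library and passed 10 counts in 1 library, and the remaining 8 stayed below 10 counts in every library. All 33 members passed the filter on low counts and were among the 11162 genes tested.

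Messenger RNA was measured in livers of Sprague Dawley rats with the genotype label Tspo knockout (KO) or wild type (WT), kept on either a methionine-choline deficient (MCD) diet or chow. The Tspo product is a translocator protein of mitochondria, and the MCD diet, which hinders export of fat from the liver, is used to induce steatohepatitis. The 4 groups of 4 libraries were KO rats on MCD, WT rats on MCD, KO rats on chow and WT rats on chow, and all rats were fed normally until 12 weeks of age, kept on the assigned diet for 8 weeks and 20 weeks old when sampled. The sources used here do not state how Tspo was inactivated, whether the KO rats come from 1 founder line, or the sex of the rats. The labels do not say whether each library is a separate animal, so p-values measure the spread between libraries.

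Cytochromes P450 are heme enzymes of the endoplasmic reticulum that use electrons from NADPH, passed on by P450 reductase, to oxidise their substrates. Families 1 to 3 hold most of the enzymes by which hepatocytes clear drugs, toxins and steroid hormones, and many members of family 4 hydroxylate fatty acids and eicosanoids. Several are switched on by sensors of foreign compounds, namely AhR for Cyp1a, CAR for Cyp2b and PXR for Cyp3a, and in the rat some, such as Cyp2a2 and Cyp3a2, depend on the pattern of growth hormone release and are male-biased.

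The 33 members comprised 2 Cyp1a, 2 Cyp2a, 3 Cyp2b, 5 Cyp2d, 1 Cyp2f, 3 Cyp2j, 1 each of Cyp2r, Cyp2s, Cyp2t and Cyp2u, 5 Cyp3a, 1 Cyp4b, 6 Cyp4f and 1 Cyp4v gene. In RefSeq's annotation of GRCr8, where 32 were found by symbol and 1 (Cyp3a23/3a1) by synonym, 11 lay on chromosome 7, 9 on chromosome 1, 5 on chromosome 12, 4 on chromosome 5, 2 on chromosome 8, and 1 each on chromosomes 2 and 16. Close copies are common in these subfamilies and their expected counts depend on how reads were shared among them. The near-identical pair Cyp2b1 and Cyp2b2 is shown by its promoters, because the 2 genes differed in their response to diet. The printed 233 bases lie on the plus strand of chromosome 1 of GRCr8, at chr1:90645886-90646118 for Cyp2b1 and chr1:90722031-90722263 for Cyp2b2, and 225 of them (96.6%) were identical. Capitals mark the 8 bases that differ.

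Cyp2b1: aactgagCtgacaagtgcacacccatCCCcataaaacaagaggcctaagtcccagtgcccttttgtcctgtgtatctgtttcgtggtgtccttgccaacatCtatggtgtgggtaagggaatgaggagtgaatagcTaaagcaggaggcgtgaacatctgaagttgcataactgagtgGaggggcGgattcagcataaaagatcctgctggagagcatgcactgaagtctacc

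Cyp2b2: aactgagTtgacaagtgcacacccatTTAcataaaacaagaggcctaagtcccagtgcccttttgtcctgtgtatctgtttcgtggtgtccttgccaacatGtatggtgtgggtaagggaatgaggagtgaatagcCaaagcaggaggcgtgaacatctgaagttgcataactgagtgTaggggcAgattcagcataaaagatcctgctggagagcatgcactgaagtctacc

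The Cyp3a members also differed from each other, and the 250 bases before the annotated starts of Cyp3a2 (chr12:14343858-14344107, minus strand) and Cyp3a18 (chr12:13994062-13994311, plus strand) are given from GRCr8. Capitals mark the letters AGTTCA or AGGTCA on either strand, which are half-sites that nuclear receptors such as PXR can bind.

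Cyp3a2: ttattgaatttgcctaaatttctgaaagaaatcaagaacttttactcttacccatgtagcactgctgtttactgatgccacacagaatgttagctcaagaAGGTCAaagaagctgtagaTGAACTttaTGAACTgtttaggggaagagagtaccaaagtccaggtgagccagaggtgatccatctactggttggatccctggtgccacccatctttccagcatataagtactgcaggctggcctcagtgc

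Cyp3a18: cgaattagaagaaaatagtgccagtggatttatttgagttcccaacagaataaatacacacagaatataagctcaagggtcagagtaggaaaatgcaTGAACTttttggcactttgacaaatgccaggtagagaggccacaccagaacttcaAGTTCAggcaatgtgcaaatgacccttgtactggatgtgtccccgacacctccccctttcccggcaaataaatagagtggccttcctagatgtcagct

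Of the 33 members 28 had a promoter in the RefSeq table, and the search covered 250 bases before the first listed start on both strands. Cyp1a1, Cyp2a2, Cyp4f4, Cyp4f17 and Cyp4v3 had no promoter there and were not searched. A direct repeat, AGTTCA followed by any 3 bases and a second AGTTCA, was found in 2 of 27457 promoters (0.00728%), those of Cyp3a2 and Cyp3a23/3a1. Its first and last bases lay 131 and 117 bases before the start in Cyp3a2, and 144 and 130 bases before it in Cyp3a23/3a1. Single AGTTCA letters, which include those of the repeat, were in 8 of the 28 member promoters and 12.1% of all promoters. AGGTCA was in 6 member promoters and 13.7% of all. GCGTG, the core of the site that AhR binds, was in 8 member promoters and 27.2% of all. Cyp1a2 was not among the 8, and Cyp1a1 was not searched. The letters were chosen by hand and only exact copies were counted, so these numbers depend on that choice. A match of letters is a description and not evidence of binding.

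Levels are in CPM, counts brought to a common library size with TMM factors, a scaling that aligns libraries on the bulk of their genes. They are not divided by gene length, so they are compared between libraries and not between genes, and a share within a subfamily is a share of counts. Library totals ran between 10749754 and 15347814 counts in KO MCD, 10931108 and 15762651 in WT MCD, 11330036 and 12521165 in KO chow, and 8745744 and 12896853 in WT chow. Tspo was at 4.17, 1.66, 1.02 and 1.21 CPM in KO MCD and at 8.78, 9.33, 7.94 and 7.63 CPM in WT MCD. It was at 1.14, 0.656, 1.29 and 4.42 CPM in KO chow, against 3.80, 4.37, 3.61 and 5.23 CPM in WT chow. The library labelled KO chow 4 thus lay within the WT chow range and KO MCD 1 above the other KO MCD libraries, so KO stands for the label throughout. Libraries KO MCD 1, KO chow 4 and WT chow 4 stood apart from the rest. A contrast of 15 long against 19 short messages gave -0.57 in KO MCD 1, against 1.00 to 1.42 in the other MCD libraries. It gave -1.05 in KO chow 4 and -0.30 in WT chow 4, against -0.18 to 0.14 in the other chow libraries. The second principal component (16.1% of the variance) gave these 3 libraries 33.0 to 63.7 and the other 13 -43.2 to 9.1, of which WT chow 1, 2 and 3 had -38.4, -24.8 and -43.2. The 6 hepatocyte markers summed to 100900 to 120600 CPM in KO MCD, 94990 to 133900 in WT MCD, 174100 to 234300 in KO chow and 164100 to 207800 in WT chow, with none at 0. In bulk tissue, fewer cells of a type and less RNA per cell cannot be told apart.

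On the MCD diet more of these P450s fell than rose against chow, in both genotypes, under TMM scaling. Of the 33 members 16 fell and 6 rose in KO livers (edgeR adjusted p under 0.05 over 11162 genes), where 40.4% of all genes were called, 18.5% lower and 21.9% higher. In WT livers 17 fell and 4 rose, where 34.1% of all genes were called, 15.9% lower and 18.2% higher. As a share of the members, 48.5% fell in KO and 51.5% in WT. The median log2 fold of the members was -0.72 in KO and -0.79 in WT, against 0.04 in KO and -0.00229 in WT over all genes tested. Both diet effects were of the same sign wherever a member was called in both genotypes, with 14 members lower in both and 4 higher in both. How often the other genes agreed in sign was not counted. Libraries did not overlap between diets for 16 members lower and 5 higher in KO, where 14% and 17.6% of all genes did so. In WT 18 members were lower and 4 higher without overlap, where 17.9% and 20.1% of all genes did so. Without the 3 libraries that stood apart, 18 members fell and 7 rose in KO and 18 fell and 4 rose in WT, where 51.6% of all genes were called in KO (23.8% lower, 27.9% higher) and 50.5% in WT (24.7% lower, 25.8% higher). Without the 2 KO libraries with the highest Tspo levels, KO MCD 1 and KO chow 4, 16 fell and 7 rose in KO and 19 fell and 4 rose in WT, where 43.4% of all genes were called in KO (19.5% lower, 23.8% higher) and 45.9% in WT (22.8% lower, 23% higher).

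These directions are relative to the bulk of genes. When libraries were scaled to their totals alone, the median gene stood 0.77 (log2) higher on MCD in KO and 0.53 higher in WT, and 6 members fell and 10 rose in KO, while 10 fell and 8 rose in WT. Of all genes 61.4% were then called in KO (3.64% lower, 57.7% higher) and 47.6% in WT (4.55% lower, 43% higher). Under TMM scaling the hepatocyte marker sums were also lower on MCD and overlapped in neither genotype, with 3 of 6 markers lower and 0 higher in each. Mean Apoa1 was higher on MCD, at 2569 CPM in KO and 2668 in WT, against 2162 and 2345 on chow. Marker sums were not taken with library totals alone. Bile duct markers (4 of 6 in the table) summed to 74.7 to 117.8 CPM in KO MCD and 71.8 to 130.2 in WT MCD, against 17 to 32.0 in KO chow and 16.6 to 38.6 in WT chow. Stellate cell markers summed to 142.3 to 263.7 CPM in KO MCD and 181.0 to 478.6 in WT MCD, against 86.6 to 113.7 in KO chow and 86.7 to 173.1 in WT chow. The 5 macrophage markers summed to 160.0 to 294.8 CPM in KO MCD and 116.0 to 248.7 in WT MCD, against 375.6 to 566.4 in KO chow and 282.3 to 428.5 in WT chow, with 2 lower and 0 higher in each genotype. They did not move alike. Mean Clec4f was 69.8 CPM in KO MCD and 55.1 in WT MCD, against 224.1 and 156.5 on chow. Marco and Cd5l also had lower means on MCD. Mean Cd68 was higher on MCD, at 41.9 CPM in KO and 41.05 in WT, against 22.4 and 27.95 on chow. Mean Cd163 was higher in KO and nearly level in WT. All 4 red blood cell markers fell in both, with sums of 95.5 to 134.9 CPM in KO MCD and 79.2 to 219.7 in WT MCD, against 455.9 to 4534 in KO chow and 965.3 to 1423 in WT chow. The part of these shifts in the P450 results was not tested.

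**Figure D1:**
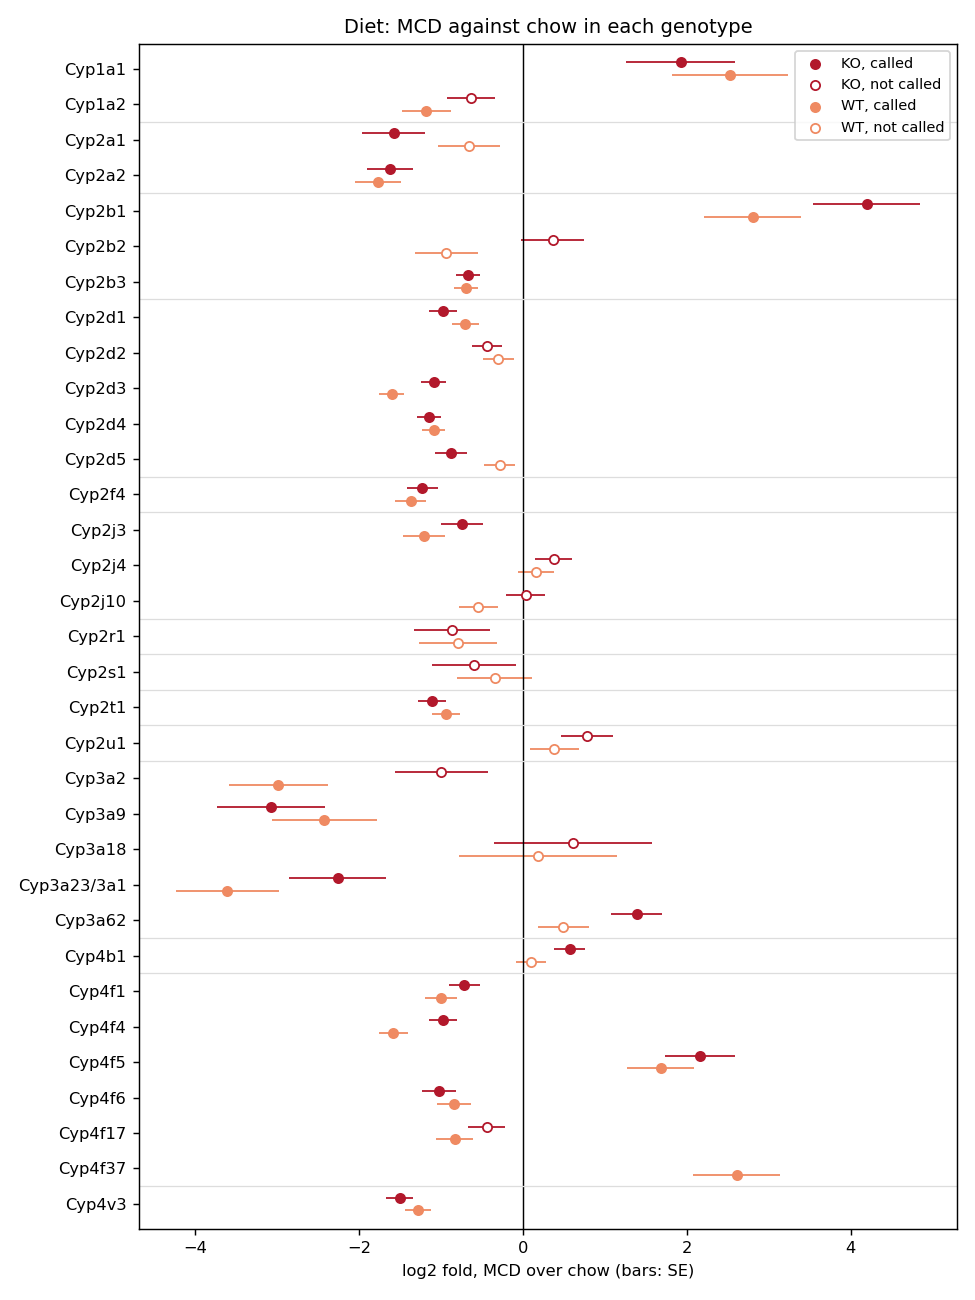
Log2 fold of each of the 33 members for MCD over chow (horizontal axis, bars are SE), in KO and in WT; filled points passed an edgeR adjusted p of 0.05, and no fold is drawn for Cyp4f37 in KO, whose chow libraries held 2 counts in all. In KO 16 members lie significantly below 0 and 6 above (Cyp4f37 counted), and in WT 17 below and 4 above, relative to TMM scaling; with library totals alone 6 fell and 10 rose in KO (3.64% and 57.7% of all genes) and 10 fell and 8 rose in WT (4.55% and 43% of all genes).

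The 2 Cyp1a genes, targets of AhR that oxidise planar aromatic compounds and aromatic amines, did not move together. Cyp1a1, the more inducible of the pair, was low throughout and rose on MCD in both genotypes. In KO livers Cyp1a1 was at 4.17, 1.77, 0.654 and 2.70 CPM on MCD, against 0.114, 0.437, 0.495 and 1.47 CPM on chow. WT livers had Cyp1a1 at 3.71, 2.61, 1.58 and 0.894 CPM on MCD, against 0.0927, 0.372, 0.722 and 0.380 CPM on chow. The lowest KO MCD library fell below the highest KO chow library, and the WT libraries did not overlap. Cyp1a1 had a log2 fold for MCD over chow of 1.93 ± 0.67 (SE), edgeR adjusted p = 0.0301 in KO and 2.53 ± 0.71 (SE), edgeR adjusted p = 0.0126 in WT. Cyp1a2, the form constitutively made in hepatocytes, fell in WT, with a log2 fold of -1.18 ± 0.30 (SE), edgeR adjusted p = 0.00677. Its log2 fold in KO was -0.64 (edgeR adjusted p = 0.0937) and did not pass the test. Cyp1a2 ranged over 67.3 to 202.3 CPM in KO MCD, 73.5 to 137.7 in WT MCD, 159.3 to 247.6 in KO chow and 204.3 to 315.8 in WT chow. Cyp1a1 took at most 5.84% of the CPM of the pair in any library, and the summed pair had a log2 fold of -0.62 (edgeR adjusted p = 0.1) in KO and -1.16 (edgeR adjusted p = 0.00713) in WT.

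Both Cyp2a genes encode testosterone hydroxylases, and both were lower on MCD in KO livers. Cyp2a2, a male-biased enzyme of the rat, fell in both genotypes. In KO livers Cyp2a2 was at 271, 243, 320.5 and 304 CPM on MCD, against 896, 490.4, 743 and 1380 CPM on chow. WT livers had Cyp2a2 at 354, 170.1, 290.4 and 262 CPM on MCD, against 804, 859.8, 927 and 1087 CPM on chow. Every MCD library lay below every chow library, and KO chow 4 was the highest of all. Cyp2a2 had a log2 fold for MCD over chow of -1.62 ± 0.28 (SE), edgeR adjusted p = 0.000379 in KO and -1.77 ± 0.28 (SE), edgeR adjusted p = 0.000232 in WT. Leaving out the 3 libraries that stood apart gave folds of -1.30 in KO and -1.68 in WT. In KO livers Cyp2a1 was at 200.5, 129, 178 and 173 CPM on MCD, against 309, 464, 417 and 843 CPM on chow. WT livers had Cyp2a1 at 220.4, 114, 161 and 165 CPM on MCD, against 162, 214, 147 and 521 CPM on chow. The KO groups did not overlap, whereas 3 WT chow libraries lay inside the WT MCD range. Cyp2a1 had a log2 fold for MCD over chow of -1.58 ± 0.38 (SE), edgeR adjusted p = 0.00441 in KO and -0.66 ± 0.38 (SE), edgeR adjusted p = 0.181 in WT. In KO the call for Cyp2a1 was lost, at -0.84 (edgeR adjusted p = 0.255), when the contrast of long and short messages was a covariate. The difference of the diet effects on Cyp2a1 between KO and WT was -0.92 ± 0.53 (SE), edgeR adjusted p = 1.

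The Cyp2b genes split by member. Cyp2b1, the phenobarbital-inducible enzyme regulated through CAR, was far higher on MCD. In KO livers Cyp2b1 was at 11.8, 27.1, 13.02 and 12.4 CPM on MCD, against 0.568, 0.219, 0.495 and 2.41 CPM on chow. WT livers had Cyp2b1 at 14.6, 11.2, 10.6 and 10.4 CPM on MCD, against 1.11, 0.558, 0.289 and 4.47 CPM on chow. All 8 MCD libraries lay above all 8 chow libraries, and the highest chow values were those of KO chow 4 and WT chow 4. The chow levels rest on few counts, 1.66 to 17.77 per KO library and 1.61 to 47.45 per WT library. Cyp2b1 had a log2 fold for MCD over chow of 4.19 ± 0.66 (SE), edgeR adjusted p = 0.000195 in KO and 2.80 ± 0.59 (SE), edgeR adjusted p = 0.00214 in WT. Without the 3 libraries that stood apart the folds were 5.33 in KO and 4.05 in WT.

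Cyp2b2, its close copy and also inducible by phenobarbital, did not pass the test in either genotype. In KO livers Cyp2b2 was at 10.9, 25.01, 14.04 and 27.8 CPM on MCD, against 14.99, 19.6, 7.52 and 18.7 CPM on chow. WT livers had Cyp2b2 at 17.6, 12.6, 14.9 and 4.66 CPM on MCD, against 33.3, 20.6, 18.8 and 21.97 CPM on chow. The KO groups overlapped, while every WT MCD library was below every WT chow library. Cyp2b2 had a log2 fold for MCD over chow of 0.36 ± 0.39 (SE), edgeR adjusted p = 0.471 in KO and -0.94 ± 0.39 (SE), edgeR adjusted p = 0.0714 in WT. Cyp2b1 made up 51.8, 52, 48.1 and 30.8% of the CPM of the pair in KO MCD and 45.4, 47.1, 41.6 and 69.1% in WT MCD. Its share was 3.65, 1.10, 6.17 and 11.4% in KO chow and 3.23, 2.63, 1.52 and 16.9% in WT chow, so the lowest MCD share exceeded the highest chow share. The split depends on how reads were shared between the copies. With the 2 genes summed, an alternative added after seeing the data, the log2 fold was 1.14 (edgeR adjusted p = 0.0108) in KO and -0.07 (edgeR adjusted p = 0.88) in WT.

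Cyp2b3, which is constitutive in rat liver and is not induced by phenobarbital, fell in both genotypes under TMM scaling, while its fold was 0.05 in KO and -0.18 in WT (edgeR adjusted p = 0.832 and 0.461) when libraries were scaled to their totals. In KO livers Cyp2b3 was at 471, 526, 467 and 582 CPM on MCD, against 719, 893, 801 and 849 CPM on chow. WT livers had Cyp2b3 at 476, 469, 559 and 478 CPM on MCD, against 818, 914, 707 and 776 CPM on chow. The diets did not overlap in either genotype. Cyp2b3 had a log2 fold for MCD over chow of -0.67 ± 0.15 (SE), edgeR adjusted p = 0.00238 in KO and -0.70 ± 0.15 (SE), edgeR adjusted p = 0.00224 in WT. Cyp2b3 carried most Cyp2b counts, and the sum of the 3 genes fell by 0.60 in KO (edgeR adjusted p = 0.0051) and by 0.67 in WT (edgeR adjusted p = 0.00307) under TMM scaling. With library totals its fold was 0.12 in KO (edgeR adjusted p = 0.602), on the other side of 0, and -0.15 in WT (edgeR adjusted p = 0.525).

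**Figure D2:**
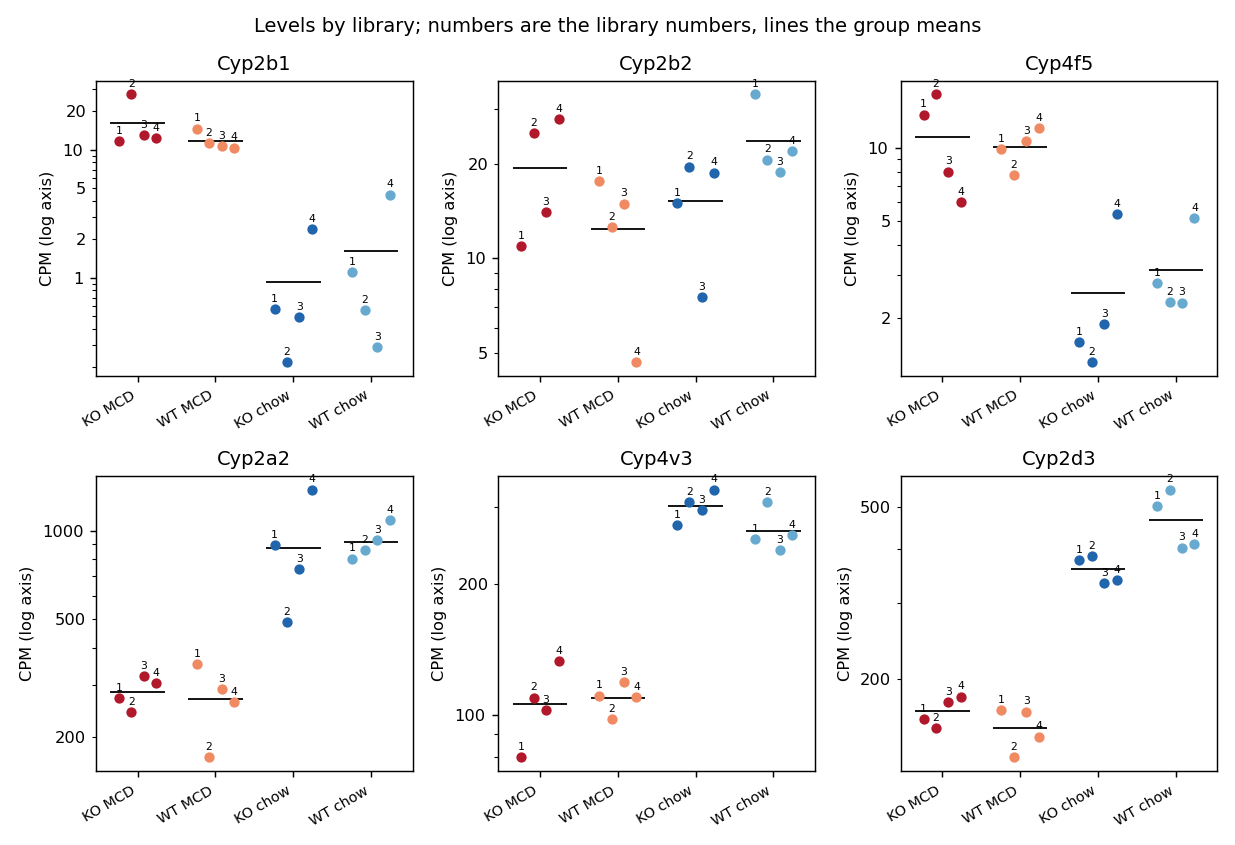
CPM (log axis) of 6 members in each of the 16 libraries, in the order KO MCD, WT MCD, KO chow and WT chow; points are libraries with their numbers and lines are group means. Cyp2b1 and Cyp4f5 lie higher on MCD, Cyp2a2, Cyp4v3 and Cyp2d3 lie lower, and Cyp2b2 overlaps in KO.

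The Cyp2d genes, relatives of the human enzyme that oxidises debrisoquine and many drugs, mostly fell on MCD under TMM scaling. Of 5 members 4 fell in KO and 3 in WT, where 18.5% and 15.9% of all genes fell. In KO livers Cyp2d3 was at 161, 154, 177 and 182 CPM on MCD, against 378, 386, 333 and 338 CPM on chow. WT livers had Cyp2d3 at 169, 131, 168 and 147 CPM on MCD, against 504, 550, 403 and 411 CPM on chow. All MCD libraries lay well below all chow libraries. Cyp2d3 had a log2 fold for MCD over chow of -1.09 ± 0.15 (SE), edgeR adjusted p = 6.98e-05 in KO and -1.60 ± 0.15 (SE), edgeR adjusted p = 3.64e-06 in WT. With library totals alone its KO fold was -0.37 (edgeR adjusted p = 0.11). Cyp2d4, which is also made in rat brain, had a log2 fold of -1.15 ± 0.14 (SE), edgeR adjusted p = 3.05e-05 in KO and -1.09 ± 0.14 (SE), edgeR adjusted p = 5.48e-05 in WT. Its highest MCD library had 13.8 CPM and its lowest chow library 21.7 CPM. Cyp2d1 had a log2 fold of -0.98 (edgeR adjusted p = 0.000428) in KO and -0.71 (edgeR adjusted p = 0.0048) in WT, again with no overlap between the diets.

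Cyp2d5, a close copy of Cyp2d1, fell in KO but did not pass the test in WT. In KO livers Cyp2d5 was at 332, 313, 294 and 318 CPM on MCD, against 586, 610.1, 553 and 566 CPM on chow. WT livers had Cyp2d5 at 305, 269.7, 359.8 and 285 CPM on MCD, against 287, 301, 342 and 556 CPM on chow. The KO diets did not overlap, and 3 of 4 WT chow libraries lay within the WT MCD range. Cyp2d5 had a log2 fold for MCD over chow of -0.88 ± 0.19 (SE), edgeR adjusted p = 0.00218 in KO and -0.29 ± 0.19 (SE), edgeR adjusted p = 0.253 in WT. Summed with Cyp2d1, an alternative added after seeing the data, the pair had a log2 fold of -0.92 (edgeR adjusted p = 0.000909) in KO and -0.49 (edgeR adjusted p = 0.0412) in WT. Cyp2d2, the debrisoquine hydroxylase of the rat, did not pass the test in either genotype. In KO livers Cyp2d2 was at 521, 614, 632 and 854 CPM on MCD, against 939.6, 990.1, 892 and 737 CPM on chow. WT livers had Cyp2d2 at 713, 552, 833 and 768 CPM on MCD, against 896, 954, 761 and 919.5 CPM on chow. The diets overlapped in both genotypes. Cyp2d2 had a log2 fold for MCD over chow of -0.44 ± 0.18 (SE), edgeR adjusted p = 0.066 in KO and -0.30 ± 0.18 (SE), edgeR adjusted p = 0.213 in WT. With DESeq2 in place of edgeR the KO fold of Cyp2d2 was -0.48 (adjusted p = 0.0193). The Cyp2d sum was 1407 ± 159 CPM in KO MCD, 1436 ± 202 in WT MCD, 2360.3 ± 138 in KO chow and 2155 ± 249.7 in WT chow (mean ± SD, n = 4). Under TMM scaling its log2 fold was -0.75 (edgeR adjusted p = 0.00206) in KO and -0.58 (edgeR adjusted p = 0.011) in WT. With library totals alone it was -0.02 (edgeR adjusted p = 0.937) in KO and -0.06 (edgeR adjusted p = 0.836) in WT.

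Among the smaller Cyp2 subfamilies, Cyp2f4, an enzyme of naphthalene oxidation known from rodent lung, fell in both genotypes. In KO livers Cyp2f4 was at 38.3, 32.2, 45.7 and 28.8 CPM on MCD, against 74.5, 81.8, 66.9 and 117 CPM on chow. WT livers had Cyp2f4 at 38.1, 32.4, 37.6 and 35.5 CPM on MCD, against 100.3, 79.5, 84.3 and 107 CPM on chow. The diets did not overlap in either genotype. Cyp2f4 had a log2 fold for MCD over chow of -1.23 ± 0.19 (SE), edgeR adjusted p = 0.000165 in KO and -1.37 ± 0.19 (SE), edgeR adjusted p = 8.14e-05 in WT. Cyp2t1 fell by 1.12 in KO (edgeR adjusted p = 0.000163) and by 0.94 in WT (edgeR adjusted p = 0.000715), with 12.9 to 17.6 CPM over the MCD libraries and 22.8 to 40.5 CPM over the chow libraries. Of the Cyp2j genes, which encode arachidonic acid epoxygenases, Cyp2j3 fell in both genotypes, with a log2 fold of -0.75 (edgeR adjusted p = 0.0296) in KO and -1.21 (edgeR adjusted p = 0.00233) in WT. Cyp2j3 stood at 50.8 to 92.2 CPM in KO MCD and 38.1 to 82.8 in WT MCD, against 81.1 to 158.3 in KO chow and 115.8 to 150.7 in WT chow. Cyp2j4 had a log2 fold of 0.38 (edgeR adjusted p = 0.19) in KO and 0.16 (edgeR adjusted p = 0.615) in WT. Cyp2j10, below 10 CPM in every library, had a log2 fold of 0.03 (edgeR adjusted p = 0.927) in KO and -0.55 (edgeR adjusted p = 0.089) in WT, and its WT diets did not overlap. Cyp2r1, a hydroxylase that acts on vitamin D, Cyp2s1 and Cyp2u1, a fatty acid hydroxylase, were all below 10 CPM and passed in neither genotype. Their log2 folds were -0.86, -0.60 and 0.78 in KO, with edgeR adjusted p = 0.146, 0.359 and 0.0587. In WT they were -0.79, -0.35 and 0.38, with edgeR adjusted p = 0.2, 0.579 and 0.336.

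The 5 Cyp3a genes encode enzymes that hydroxylate testosterone and many drugs. They differed from one another in direction and varied widely between chow libraries. Cyp3a23/3a1, the form inducible through PXR, fell in both genotypes. In KO livers Cyp3a23/3a1 was at 152, 183, 166 and 125 CPM on MCD, against 696, 339, 413 and 1560 CPM on chow. WT livers had Cyp3a23/3a1 at 156, 85.9, 44.8 and 22.7 CPM on MCD, against 483, 976, 479 and 1831 CPM on chow. The diets did not overlap in either genotype, and KO chow 4 and WT chow 4 were the highest libraries. Cyp3a23/3a1 had a log2 fold for MCD over chow of -2.27 ± 0.59 (SE), edgeR adjusted p = 0.00689 in KO and -3.61 ± 0.62 (SE), edgeR adjusted p = 0.000513 in WT. Without the 3 libraries that stood apart the KO fold was -1.61 (edgeR adjusted p = 0.0451). Without the 2 KO libraries with the highest Tspo levels it was -1.61 (edgeR adjusted p = 0.0515), and with the long and short message contrast as a covariate -1.41 (edgeR adjusted p = 0.339).

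Cyp3a2, a male-biased form whose promoter shares the direct repeat, fell in WT and did not pass the test in KO. In KO livers Cyp3a2 was at 315, 491, 411 and 205 CPM on MCD, against 654, 416, 442 and 1325 CPM on chow. WT livers had Cyp3a2 at 204, 167, 81.01 and 24.4 CPM on MCD, against 593, 1135, 382 and 1665 CPM on chow. In KO the highest MCD library exceeded 2 chow libraries, and in WT all MCD libraries were below all chow libraries. Cyp3a2 had a log2 fold for MCD over chow of -0.998 ± 0.57 (SE), edgeR adjusted p = 0.168 in KO and -2.99 ± 0.61 (SE), edgeR adjusted p = 0.00164 in WT. With the covariate for long and short messages the WT fold was -2.53 (edgeR adjusted p = 0.0591). Summed with Cyp3a23/3a1, an alternative added after seeing the data, the pair had a log2 fold of -1.51 (edgeR adjusted p = 0.0448) in KO and -3.26 (edgeR adjusted p = 0.000952) in WT.

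Cyp3a9, an estrogen-responsive and female-biased form, fell in both genotypes. In KO livers Cyp3a9 was at 4.93, 10.01, 4.95 and 9.05 CPM on MCD, against 32.2, 27.8, 24.1 and 162 CPM on chow. WT livers had Cyp3a9 at 9.16, 9.98, 6.12 and 11.02 CPM on MCD, against 17.4, 33.3, 28.7 and 115 CPM on chow. No MCD library reached the chow range, and KO chow 4 and WT chow 4 stood far above the other chow libraries. Cyp3a9 had a log2 fold for MCD over chow of -3.07 ± 0.66 (SE), edgeR adjusted p = 0.00189 in KO and -2.42 ± 0.64 (SE), edgeR adjusted p = 0.00878 in WT. Its folds without the 3 libraries that stood apart were -1.80 in KO and -1.54 in WT. With the covariate for long and short messages both calls were lost, at -1.73 in KO (edgeR adjusted p = 0.348) and -1.37 in WT (edgeR adjusted p = 0.344).

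Cyp3a18, a male-biased testosterone hydroxylase, spread widely on chow and passed in neither genotype. In KO livers Cyp3a18 was at 549, 608, 244 and 629.7 CPM on MCD, against 215, 13.4, 18.01 and 1088 CPM on chow. WT livers had Cyp3a18 at 524, 493, 633 and 504 CPM on MCD, against 84.6, 394, 271 and 1153 CPM on chow. The chow libraries lay on both sides of the MCD libraries in each genotype. Cyp3a18 had a log2 fold for MCD over chow of 0.61 ± 0.97 (SE), edgeR adjusted p = 0.636 in KO and 0.18 ± 0.96 (SE), edgeR adjusted p = 0.9 in WT. As a share of the summed Cyp3a CPM it took 51.2, 45.9, 29 and 63.7% in KO MCD and 57.6, 63.3, 80.9 and 87.3% in WT MCD. The share was 13.4, 1.67, 1.97 and 26.2% in KO chow and 7.10, 15.4, 23.2 and 24.1% in WT chow. The MCD and chow shares did not overlap in either genotype.

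Cyp3a62, the form most abundant in rat intestine, rose in KO. In KO livers Cyp3a62 was at 51.9, 34.7, 17.6 and 20.1 CPM on MCD, against 9.42, 9.40, 17.6 and 10.97 CPM on chow. WT livers had Cyp3a62 at 16.8, 23.4, 17.1 and 15.1 CPM on MCD, against 13.9, 13.2, 8.95 and 15.2 CPM on chow. KO MCD 3 and KO chow 3 had nearly the same level, and the other KO libraries were separated by diet. Cyp3a62 had a log2 fold for MCD over chow of 1.39 ± 0.31 (SE), edgeR adjusted p = 0.00279 in KO and 0.49 ± 0.31 (SE), edgeR adjusted p = 0.227 in WT. Without the 3 libraries that stood apart the KO fold was 0.99 (edgeR adjusted p = 0.0129). The Cyp3a sum was 1058 ± 203 CPM in KO MCD, 762 ± 138 in WT MCD, 1869 ± 1559.6 in KO chow and 2424 ± 1700.4 in WT chow (mean ± SD, n = 4). Its log2 fold was -0.82 (edgeR adjusted p = 0.187) in KO and -1.67 (edgeR adjusted p = 0.017) in WT. The WT call was lost without WT MCD 4, at -1.56 (edgeR adjusted p = 0.0527), and without WT chow 4, at -1.10 (edgeR adjusted p = 0.0707), and with the covariate for long and short messages, at -0.79 (edgeR adjusted p = 0.414). In KO the fold was -0.08 (edgeR adjusted p = 0.857) without the 3 libraries that stood apart.

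**Figure D3:**
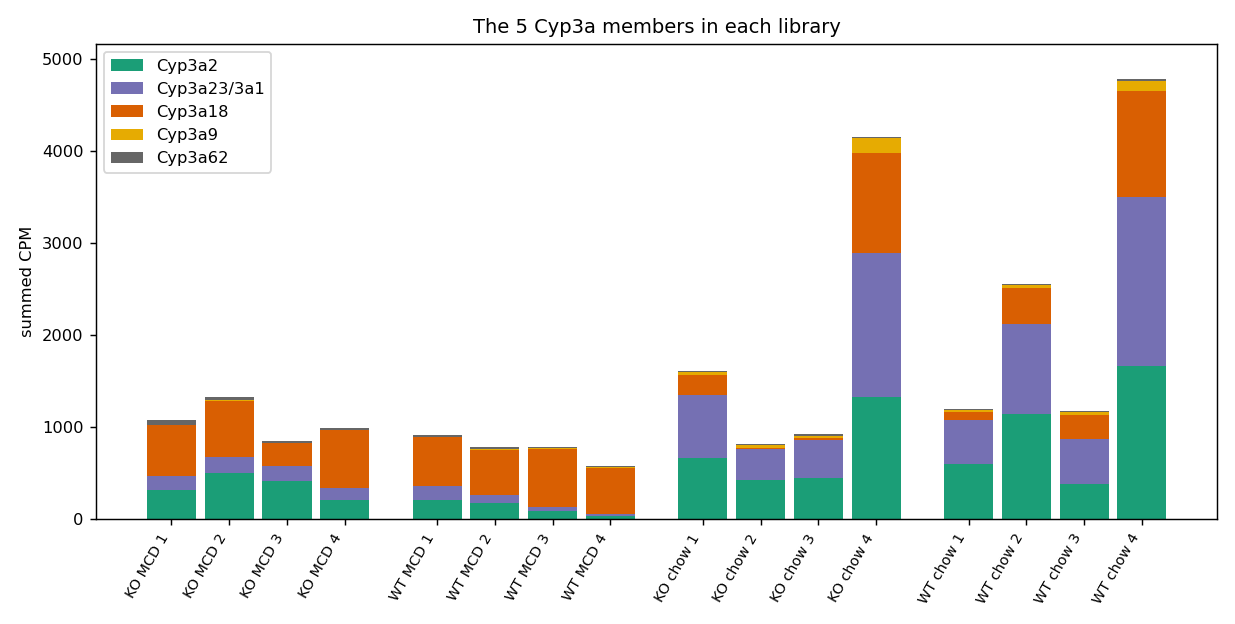
Summed CPM of the 5 Cyp3a members in each library (stacked bars from 0, 1 bar per library, in the order KO MCD, WT MCD, KO chow and WT chow). KO chow 4 and WT chow 4 carry the tallest bars, and Cyp3a18 takes 29.0 to 87.3% of the MCD bars and 1.67 to 26.2% of the chow bars.

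Family 4 held both directions. Cyp4b1, known from lung for activating furan toxins, rose in KO by a small margin. In KO livers Cyp4b1 was at 13.6, 13.7, 14.04 and 17.1 CPM on MCD, against 13.3, 9.84, 8.71 and 7.49 CPM on chow. WT livers had Cyp4b1 at 15.5, 13.8, 14.7 and 12.1 CPM on MCD, against 14.7, 15.2, 12.6 and 9.99 CPM on chow. The KO diets did not overlap by a narrow margin, and the WT diets overlapped. Cyp4b1 had a log2 fold for MCD over chow of 0.57 ± 0.19 (SE), edgeR adjusted p = 0.023 in KO and 0.09 ± 0.18 (SE), edgeR adjusted p = 0.714 in WT. The KO call was lost without KO MCD 4, KO chow 3 or KO chow 4 (edgeR adjusted p = 0.075, 0.0617 and 0.0655), and with the message length covariate (edgeR adjusted p = 0.24). Cyp4v3, a fatty acid omega-hydroxylase, fell in both genotypes. In KO livers Cyp4v3 was at 79.7, 109, 102 and 133 CPM on MCD, against 273, 308, 296 and 329.6 CPM on chow. WT livers had Cyp4v3 at 110.5, 97.7, 119 and 109.8 CPM on MCD, against 254, 308, 239 and 259 CPM on chow. All 8 MCD libraries lay below all 8 chow libraries. Cyp4v3 had a log2 fold for MCD over chow of -1.51 ± 0.16 (SE), edgeR adjusted p = 9.19e-06 in KO and -1.28 ± 0.16 (SE), edgeR adjusted p = 3.98e-05 in WT.

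The 6 Cyp4f genes belong to a subfamily known for hydroxylating leukotriene B4 and other fatty acids. Of these Cyp4f1, Cyp4f4 and Cyp4f6 fell in both genotypes, Cyp4f17 fell in WT, and Cyp4f5 and Cyp4f37 rose in both. In KO livers Cyp4f1 was at 337, 481, 404 and 368 CPM on MCD, against 722, 739.7, 636 and 513 CPM on chow. WT livers had Cyp4f1 at 340.3, 364, 433 and 414 CPM on MCD, against 882, 908, 768 and 539 CPM on chow. The diets did not overlap in either genotype. Cyp4f1 had a log2 fold for MCD over chow of -0.72 ± 0.19 (SE), edgeR adjusted p = 0.00812 in KO and -0.999 ± 0.19 (SE), edgeR adjusted p = 0.00117 in WT. Scaled to library totals alone, it had folds of -0.01 in KO (edgeR adjusted p = 0.974) and -0.48 in WT (edgeR adjusted p = 0.0955). In KO livers Cyp4f4 was at 57.9, 80.5, 83.8 and 64.95 CPM on MCD, against 152, 139, 122 and 152 CPM on chow. WT livers had Cyp4f4 at 82.3, 52.3, 66.7 and 69.7 CPM on MCD, against 224, 208, 223 and 159 CPM on chow. Every MCD library was below every chow library. Cyp4f4 had a log2 fold for MCD over chow of -0.98 ± 0.17 (SE), edgeR adjusted p = 0.000552 in KO and -1.59 ± 0.18 (SE), edgeR adjusted p = 1.52e-05 in WT. Its KO fold with library totals alone was -0.24 (edgeR adjusted p = 0.278). Cyp4f6 had a log2 fold of -1.02 (edgeR adjusted p = 0.00147) in KO and -0.84 (edgeR adjusted p = 0.00634) in WT, and Cyp4f17 had -0.44 (edgeR adjusted p = 0.126) in KO and -0.83 (edgeR adjusted p = 0.0105) in WT.

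Cyp4f5 and Cyp4f37 moved the other way from levels under 6 CPM on chow. In KO livers Cyp4f5 was at 13.8, 16.6, 8.00 and 6.01 CPM on MCD, against 1.59, 1.31, 1.88 and 5.35 CPM on chow. WT livers had Cyp4f5 at 9.91, 7.76, 10.7 and 12.1 CPM on MCD, against 2.78, 2.32, 2.31 and 5.14 CPM on chow. The diets did not overlap, and the highest chow libraries were KO chow 4 and WT chow 4. Cyp4f5 had a log2 fold for MCD over chow of 2.16 ± 0.42 (SE), edgeR adjusted p = 0.00108 in KO and 1.68 ± 0.41 (SE), edgeR adjusted p = 0.00549 in WT. In KO livers Cyp4f37 was at 4.24, 5.44, 5.60 and 2.54 CPM on MCD, against 0.114, 0, 0 and 0.134 CPM on chow. WT livers had Cyp4f37 at 6.89, 5.15, 3.52 and 3.44 CPM on MCD, against 0.463, 0.0929, 0.578 and 1.90 CPM on chow. It was listed at 0 in KO chow 2 and KO chow 3, and every MCD library was above the highest chow library. In KO the ratio of MCD to chow was taken from summed counts, 279 on MCD and 2 on chow, and was 77.8 with an exact 95% counting interval of 21.3 to 645.2. In WT the counts were 301 on MCD and 30 on chow, with a ratio of 5.90 and an interval of 4.05 to 8.90. WT chow 4 alone held 19.63 of the WT chow counts, and without it, a ratio added after seeing the data, the counts were 301 and 10, which gave 12.9 with an interval of 6.94 to 27.2. These intervals cover counting error only. The fitted log2 fold of Cyp4f37 in WT was 2.61 ± 0.53 (SE), edgeR adjusted p = 0.0017, and 3.69 without WT chow 4. The sum of the 6 Cyp4f genes fell by 0.75 in KO (edgeR adjusted p = 0.00303) and by 1.03 in WT (edgeR adjusted p = 0.000381).

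Summed over subfamilies, 4 of the 7 sums with several members fell in KO (Cyp2a, Cyp2b, Cyp2d and Cyp4f) and 7 of 7 fell in WT. Of all genes 18.5% fell in KO and 15.9% in WT. The log2 folds of the sums ran between -1.61 and -0.43 in KO and between -1.67 and -0.58 in WT. With library totals alone 1 sum fell in KO and 3 in WT (3.64% and 4.55% of all genes). The Cyp2b sum in KO then had a log2 fold of 0.12 (edgeR adjusted p = 0.602). All members together gave 4157 to 4798 CPM in KO MCD and 3594 to 4513 in WT MCD, against 6819 to 11122 in KO chow and 6832 to 11267 in WT chow. As a share of all counts, with no TMM factor, they took 0.485 to 0.640% in KO MCD and 0.456 to 0.560% in WT MCD. That share was 0.546 to 0.717% in KO chow and 0.541 to 0.919% in WT chow, so it overlapped between diets where the scaled sums did not.

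**Figure D4:**
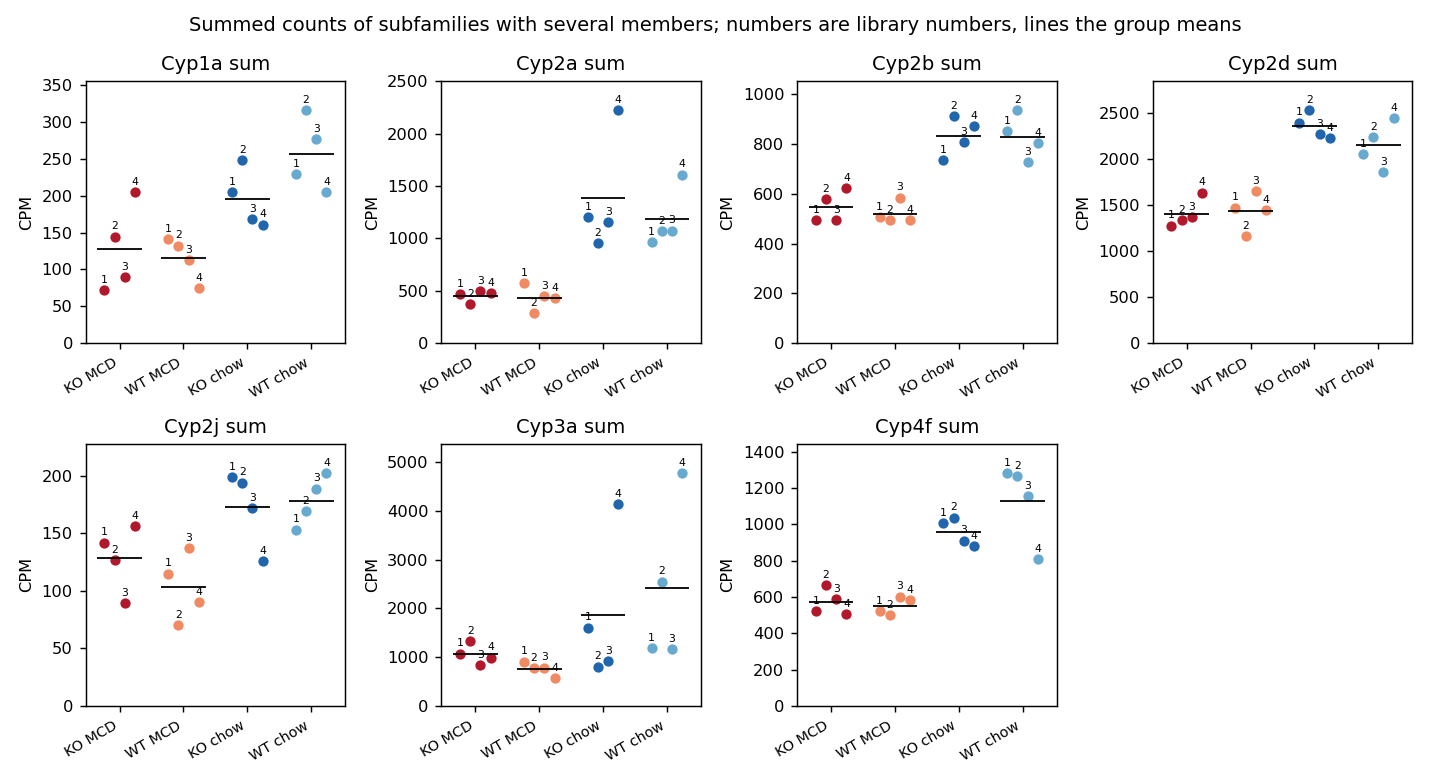
Summed CPM of the 7 subfamilies with several members, by library, in the order KO MCD, WT MCD, KO chow and WT chow (points are libraries, lines group means). All 7 sums fell in WT and 4 fell in KO under TMM scaling (15.9% and 18.5% of all genes). With library totals 3 fell in WT and 1 in KO (4.55% and 3.64% of all genes). The log2 fold of the Cyp2b sum in KO was then 0.12 (edgeR adjusted p = 0.602).

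KO and WT livers were compared on each diet, the question named in the design being the response of the 2 genotypes to MCD. On MCD 0 of 33 members passed the test, as did 0% of all genes with edgeR, Tspo itself included (log2 fold -2.07, edgeR adjusted p = 1), and 2 members had an unadjusted p under 0.05 against 81 of 11162 genes. With DESeq2 0 members were called and 3 had an unadjusted p under 0.05. The log2 folds of KO over WT ran between -0.95 and 1.58 with a median SE of 0.26. The widest was that of Cyp3a2, whose 4 KO MCD libraries lay above the 4 WT MCD libraries given above. Its log2 fold was 1.58 ± 0.58 (SE), edgeR adjusted p = 1. Cyp3a62 had a log2 fold of 0.78 ± 0.30 (SE), edgeR adjusted p = 1. Cyp3a2 was the 1 member higher in KO MCD without overlap, where 0.421% of all genes were so, and 0 were lower, where 0.376% were.

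On chow 0 of 33 members passed the test, where 0.00896% of all genes (1 gene) were called with edgeR, and 6 members had an unadjusted p under 0.05 against 1153 of 11162 genes. Tspo had a log2 fold of -1.23 (edgeR adjusted p = 0.46) on chow. DESeq2 called 0 members and 14 of 14231 genes on chow. Cyp2d5 was higher in 3 of the 4 KO chow libraries than in every WT chow library, with WT chow 4 closest to KO, and had a log2 fold of 0.64 ± 0.19 (SE), edgeR adjusted p = 0.435. Cyp2a1 had a log2 fold of 0.96 ± 0.38 (SE), edgeR adjusted p = 0.459. Cyp4f4 had a log2 fold of -0.53 ± 0.17 (SE), edgeR adjusted p = 0.449, and Cyp2d3 of -0.38 ± 0.15 (SE), edgeR adjusted p = 0.459. These last 2 genes were the members lower in KO chow without overlap, where 2.59% of all genes were so, and 0 were higher without overlap, where 1.76% were. Cyp4f37 held 2 counts in KO chow and 30 in WT chow, a ratio of 0.0732 with an exact 95% counting interval of 0.00847 to 0.288 (0.160 and 0.0171 to 0.752 without WT chow 4), and its edgeR adjusted p was 0.396.

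The chow comparison of genotypes depended on the libraries that stood apart. Without KO MCD 1, KO chow 4 and WT chow 4 it called 516 of 11220 genes (4.6%). Cyp2a1 then rose by 1.19 (edgeR adjusted p = 0.0177) and Cyp2d5 by 0.91 (edgeR adjusted p = 0.00462) in KO, and Cyp4f4 fell by 0.66 (edgeR adjusted p = 0.0305). Without WT chow 4 alone it called 17 of 11264 genes (0.151%), Cyp2d5 among them at 0.90 (edgeR adjusted p = 0.0226).

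The difference of the diet effects between KO and WT passed for 0 of 33 members, as for 0% of all genes with edgeR, and 6 members had an unadjusted p under 0.05 against 330 of 11162 genes. DESeq2 called 0 members and 1 of 14231 genes for this difference. Cyp4f37 had the smallest p among the members (edgeR adjusted p = 1), and its values are given above. Cyp3a2 had a difference of 1.99 ± 0.80 (SE), edgeR adjusted p = 1. The other 4 were Cyp2b2, Cyp2d3, Cyp2d5 and Cyp4f4, with differences of 1.30, 0.51, -0.59 and 0.61 on the log2 scale (edgeR adjusted p = 1 for each). For Cyp2b1 and Cyp2b2 summed the difference was 1.21 ± 0.45 (SE), edgeR adjusted p = 1. A member called in 1 genotype and not in the other, such as Cyp3a2, Cyp2a1, Cyp2d5, Cyp1a2 or Cyp3a62, was therefore not shown to differ in its response.

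**Figure D5:**
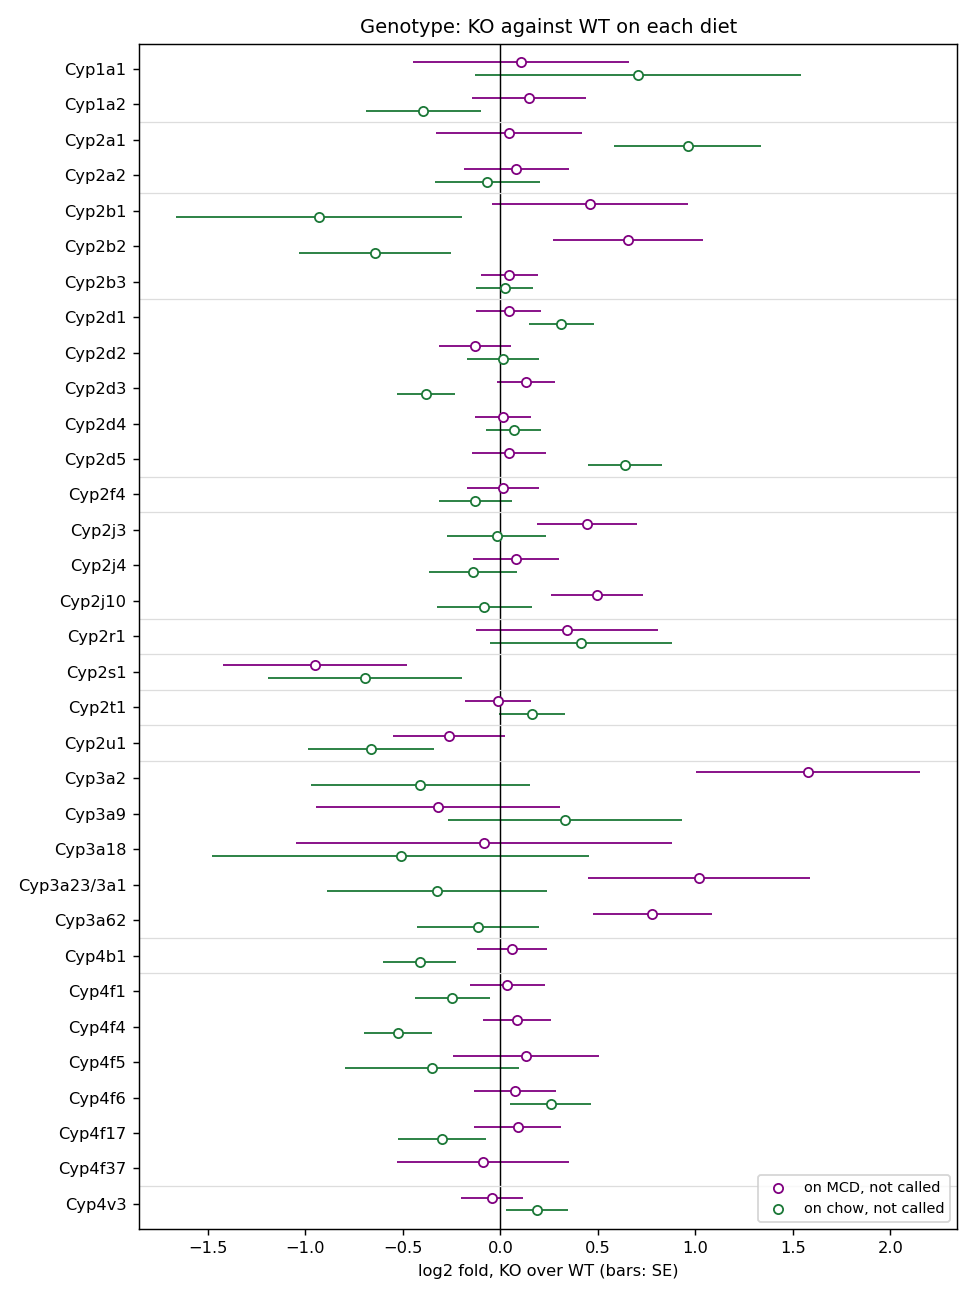
Log2 fold of each member for KO over WT (horizontal axis, bars are SE), on MCD and on chow; open points did not pass an edgeR adjusted p of 0.05, and Cyp4f37 is not drawn on chow, where KO held 2 counts. No member passed on either diet, and the widest fold drawn is that of Cyp3a2 on MCD, at 1.58.

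Lists of genes that serve or regulate P450s are read against all genes, of which 18.5% fell and 21.9% rose in KO (40.4% called) and 15.9% fell and 18.2% rose in WT (34.1% called). These lists were tested under TMM scaling and not with library totals alone. Of 8 proteins that pass electrons to P450s or bind them, 6 fell and 0 rose in each genotype. Those that fell were Cyb5a, Cyb5r3, Pgrmc1, Pgrmc2, Fdx1 and Fdxr. Cyb5a, cytochrome b5, fell by 0.97 in KO (edgeR adjusted p = 0.000208) and by 1.35 in WT (edgeR adjusted p = 1.8e-05). Pgrmc2, a heme-binding membrane protein, fell by 1.13 in KO (edgeR adjusted p = 4.39e-05) and by 1.07 in WT (edgeR adjusted p = 7.49e-05). Por, the P450 reductase, had a log2 fold of 0.09 (edgeR adjusted p = 0.8) in KO and 0.31 (edgeR adjusted p = 0.386) in WT.

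Of 14 tested nuclear receptors, AhR partners and liver transcription factors, 4 rose and 4 fell in each genotype, or 28.6% each way. Ahr, the receptor that acts on Cyp1a, had a log2 fold of 2.11 (edgeR adjusted p = 1.23e-05) in KO and 1.54 (edgeR adjusted p = 0.00014) in WT. Nr1i3, which encodes CAR, had 1.78 (edgeR adjusted p = 0.0209) in KO and 2.12 (edgeR adjusted p = 0.0101) in WT. Ppara had 2.49 (edgeR adjusted p = 1.02e-05) in KO and 2.08 (edgeR adjusted p = 4.47e-05) in WT, and Arnt, the partner of AhR, also rose in both. Among those that fell, Nr1h4 had -1.09 (edgeR adjusted p = 0.00496) in KO and -1.06 (edgeR adjusted p = 0.00737) in WT. Cebpa had -1.03 (edgeR adjusted p = 0.0151) in KO and -0.99 (edgeR adjusted p = 0.0218) in WT. Cebpb and Dbp also fell in KO, and Onecut1 and Foxa2 in WT. Nr1i2, which encodes PXR, had -0.06 (edgeR adjusted p = 0.83) in KO and -0.35 (edgeR adjusted p = 0.22) in WT.

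Of 12 genes of heme supply and breakdown 5 fell in KO and 4 in WT, and 0 rose. Thus 41.7% fell in KO and 33.3% in WT, where 18.5% and 15.9% of all genes fell. Either way, 40.4% of all genes were called in KO and 34.1% in WT. Ppox, of the heme synthesis pathway, had a log2 fold of -1.56 (edgeR adjusted p = 0.000161) in KO and -1.23 (edgeR adjusted p = 0.00115) in WT, and Alas1, the rate-limiting enzyme of that pathway, had 0.81 (edgeR adjusted p = 0.0523) in KO and 0.79 (edgeR adjusted p = 0.0654) in WT. Of 9 genes of growth hormone signalling 4 fell and 0 rose in KO, and 4 fell and 1 (Jak2) rose in WT. Thus 44.4% fell in each genotype, where 18.5% of all genes fell in KO and 15.9% in WT. Either way, 44.4% of the list was called in KO and 55.6% in WT, where 40.4% and 34.1% of all genes were. Igf1, the main hepatic target of growth hormone, had a log2 fold of -2.46 (edgeR adjusted p = 6.87e-05) in KO and -2.82 (edgeR adjusted p = 3.04e-05) in WT. Socs2, a feedback inhibitor, had -2.16 (edgeR adjusted p = 0.0202) in KO and -4.10 (edgeR adjusted p = 0.000701) in WT. Of 13 P450s outside the rule (Cyp2e1, Cyp2c and Cyp4a) 2 rose and 5 fell in KO and 2 rose and 7 fell in WT, with Cyp2e1 and Cyp2c24 the 2 that rose in both. In the KO over WT comparisons and the interaction of genotype with diet, 0 of the 56 tested genes of these 5 lists were called with edgeR. Of these 0 had an unadjusted p under 0.05 in KO over WT on MCD, 5 in KO over WT on chow and 4 in the interaction.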

How the data were processed

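Per the labels' protocols, libraries were made from rat liver RNA with a kit that enriches mRNA and keeps strand. The authors deposited expected counts per gene for 16 libraries (88.9% of the values were whole numbers), and the submitters' processing notes list rn6, Bowtie2 2.1.0 and RSEM 1.2.15 without giving their roles. RSEM, as a rule, shares reads among genes they match equally well, so single values of close P450 copies are uncertain. The sources used here do not state the strand setting or the annotation. A table of normalised values, also deposited by the authors, was not used.

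Expected counts were rounded to whole numbers, and all tests ran in edgeR 4.0.16 under R 4.3.3. Genes passed filterByExpr over the 4 groups (11162 kept). The robust quasi-likelihood test was run for 5 contrasts with TMM factors and 1 term per group; the biological coefficient of variation was 28%, on 12 residual degrees of freedom. Calls need an adjusted p (Benjamini-Hochberg, over all genes tested in the contrast) under 0.05. The SE is the log2 fold divided by the root of the test statistic. Subfamily sums replaced their members in the same fit. Promoters came from RefSeq's GRCr8 tables, which differ from rn6 and served for names and sequences only.

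Library values are given for the 6 called members per direction with the largest fold in a diet contrast (at 5 CPM or more), the member with the smallest interaction p, and the 5 with the highest mean CPM, plus others named by subfamily and chosen after their values were seen (Cyp1a1, Cyp2b2, Cyp2d5 and Cyp3a18). The members, gene lists and tests were chosen with earlier results of these data known. Alternatives were DESeq2 1.42.0, other scalings, no filter, a replicate block, a message length covariate, fits without libraries, only the 8 libraries compared, and sums of close pairs. Replicate libraries differed far beyond counting noise (chi-square per gene 15.3 to 383.9), so all were counted singly; this does not show that they come from separate animals. On simulated counts for 11162 genes, the KO over WT comparison on MCD called 51 of 100 genes with an added 2-fold change and 93 of 100 with a 4-fold change. The changed genes all had mean counts above a minimum, and no simulated library was made to stand apart from its group. The rates may therefore overstate what could be found in the data, where Tspo, at -2.07 (log2), was not called.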

Additional observations from a re-analysis of the deposited data

Results flagged for a closer look

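In 10 of 132 sets of 4 libraries (each member in each group) 1 library lay far from the other 3, by Dixon's test at its 95% critical value. For independent, normally distributed values about 1 in 20 such sets would be flagged. Members measured in the same libraries are not independent, and flags over all genes were not counted. Of the 10, KO chow 4 and WT chow 4 held 3 each, and both were among the libraries that stood apart. Cyp3a9 was at 161.7 CPM in KO chow 4, where the other KO chow libraries had 24.2 to 32.2 CPM, and at 115.4 CPM in WT chow 4, where the others had 17.4 to 33.3. Cyp4f5 was at 5.35 CPM in KO chow 4 (others 1.31 to 1.88) and at 5.14 CPM in WT chow 4 (others 2.31 to 2.78). Cyp2b1 was at 2.41 CPM in KO chow 4 (others 0.219 to 0.568) and at 27.1 CPM in KO MCD 2 (others 11.8 to 13.0). Cyp2r1 was at 9.70 CPM in WT chow 4 (others 2.22 to 2.89) and at 7.52 CPM in KO chow 3 (others 5.25 to 5.45). Cyp4b1 was at 17.1 CPM in KO MCD 4 (others 13.6 to 14.0). Cyp2b3 was at 558.6 CPM in WT MCD 3 (others 469.1 to 478.5).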

How the results depend on the processing

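With libraries scaled to their totals alone, 10 members rose and 6 fell on MCD in KO (57.7% and 3.64% of all genes) and 8 rose and 10 fell in WT (43% and 4.55%), and 1 subfamily sum fell in KO and 3 in WT; the median of all genes then shifted to 0.77 in KO and 0.53 in WT. Under that scaling Cyp2b3 in KO had a fold of 0.0498 (adjusted p = 0.832) and the sum of Cyp2b in KO 0.12 (adjusted p = 0.602). Summed with Cyp2b2, an alternative added after seeing the data, Cyp2b1 in WT had -0.0706 (adjusted p = 0.88). Without the 3 libraries that stood apart 2 members were higher and 1 lower in KO than in WT on chow, and without WT chow 4 1 was higher. Leaving out each library in turn gave 4 to 7 members higher and 15 to 18 lower in KO with diet, where 29.8 to 47.5% of all genes were called, 4 higher and 17 to 18 lower in WT, where 25.2 to 40.5% were, 4 to 5 sums lower in KO and 6 to 7 in WT. It gave 0 members higher or lower in KO over WT on MCD, 0 to 1 higher and 0 lower on chow, and 0 either way in the interaction of genotype with diet. With a replicate block 6 members rose (5 of them also without it) and 15 fell in KO, where 38% of all genes were called, and 4 rose and 17 fell in WT, where 32.7% were, and 120 of 120 single results kept their direction and call. Deviations of same-numbered libraries correlated at -0.38 to 0.51, over 0.1 in 7 of 24 pairs, and 4 of 16 libraries correlated best with their own number. These values cannot tell whether libraries of the same number share a batch or are paired. KO chow 4 and WT chow 4, which both stood apart, carry the same number. With the message length covariate 8 of 120 single results lost their call, with DESeq2 0 did, and the cause was not tested. The 120 include the genotype comparisons and the interaction, where no member or sum was called to begin with. Over all genes that covariate called 19.5% in KO and 21.6% in WT with diet, against 40.4% and 34.1% without it. Depth limits the low members, of which Cyp4f37 held 2 counts over the KO chow libraries. Cyp2b1 held 1.66 to 17.77 counts per KO chow library and 1.61 to 47.45 per WT chow library. Cyp1a1 held 1 to 10.68 counts per KO chow library and 1 to 5 per WT chow library. In the simulation, which changed no gene of low mean count, 2-fold changes between genotypes were recovered in 51 of 100 genes.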
